A study of Mus musculus with 16 samples.

Results

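Egr1, Fos, Ier2 and Nr4a1 are 4 immediate early genes, and their expression was compared between mice carrying a Huntington's disease allele and wildtype mice in brain and liver. They were chosen by symbol, with earlier results of these data known. These genes were found on 5 of 20794 probes, as 4 of 9026 genes that the array annotation names. Fos had 2 probes, called probe A and probe B here, and the other genes had 1 each. The mutant animals were 4 males of genotype HdhQ111/+, on strain C57BL/6J and aged 18 weeks. HdhQ111 is a knock-in of a long CAG repeat into the mouse huntingtin gene, so these heterozygotes keep a normal copy as well. Each mutant mouse gave brain and liver RNA. Each RNA went on 2 arrays with Cy5 and Cy3 exchanged. The other channel held pooled wildtype RNA of that tissue, from 4 males matched in strain and age, and there were 16 arrays in all. The labels name brain without a region. The pool is 1 control sample, so no value below holds the spread between wildtype animals.

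Immediate early genes are switched on within minutes of a stimulus, without new protein synthesis, and their mRNAs are short-lived. In neurons they follow synaptic activity and are widely used as markers of it, and in liver they follow growth factors, hormones, feeding and injury. Egr1 encodes a zinc finger transcription factor, Fos a leucine zipper protein that pairs with JUN proteins to form AP-1, and Nr4a1 an orphan nuclear receptor also known as Nur77. Ier2 encodes a small nuclear protein whose role is less well defined. Calcium and cAMP signals reach such genes through CREB, which binds the cAMP response element (CRE), and growth factor signals reach them through serum response factor, which binds the CArG box.

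RefSeq promoters are shown for Fos and Nr4a1, and both carry the core of the CRE. That of Egr1 was left out of those shown and Ier2 had no entry, so neither is described here. The sequences are the 250 bases before the annotated start on GRCm38.p6, plus strand, at chr12:85473640-85473889 for Fos and chr15:101266596-101266845 for Nr4a1. Capitals mark the short CRE core TGACG, or CGTCA where it lies on the other strand.
Fos: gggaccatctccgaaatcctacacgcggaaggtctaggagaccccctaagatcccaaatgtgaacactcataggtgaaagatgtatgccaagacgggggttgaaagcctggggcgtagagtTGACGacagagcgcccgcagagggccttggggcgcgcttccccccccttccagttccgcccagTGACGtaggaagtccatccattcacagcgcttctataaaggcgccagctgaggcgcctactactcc
Nr4a1: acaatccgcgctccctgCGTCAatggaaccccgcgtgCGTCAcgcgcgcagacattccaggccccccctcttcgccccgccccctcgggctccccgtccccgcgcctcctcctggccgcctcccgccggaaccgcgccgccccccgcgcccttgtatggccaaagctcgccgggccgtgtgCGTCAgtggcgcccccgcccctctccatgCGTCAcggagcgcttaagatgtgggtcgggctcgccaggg
The Fos stretch held 2 cores, the nearer one starting 66 bases before the start. The Nr4a1 stretch held 4, of which the nearest began 40 bases before it. Over 32851 promoters of this length, 17.8% held at least 1 core and 0.137% held 4 or more. Neither stretch held the full CRE TGACGTCA (1.55% of promoters), the CArG box by its name (1.47%), the AP-1 site TGANTCA (6.75%) or the site AAAGGTCA that NR4A receptors bind (1.34%), each searched on both strands. Nr4a1 had 1 match to the EGR site GCGNGGGCG (4.7% of promoters), which overlaps none of the cores, and Fos had 1 TATAAA (12.4%). These matches describe letters in a window of 250 bases, beyond which no site was searched, and nothing about binding in these tissues.

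All values are log2 ratios as deposited, with base 2 assumed. A positive ratio likely means more RNA in the HdhQ111 mouse than in the pool; no header states it. The basis is the channel order of the labels. The dye pattern described under processing speaks only for all columns being turned the same way. It cannot tell which way, because it would be the same with every sign reversed. A ratio gives no expression level, so the genes cannot be ordered by abundance, the labelled tissues cannot be checked by the level of their markers, and fewer cells of a type cannot be told apart from less RNA per cell. Array medians ran from -0.128 to 0.246 in brain and from -0.060 to 0.036 in liver. Over all probes, the mouse values of different mice hardly correlated in brain (Spearman's rho -0.13 to 0.093 between pairs of mice) and weakly in liver (0.033 to 0.21). These are correlations across probes, which are not independent replicates.

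Gene names rest on an offset: the annotation of probe number n was read as naming value row n + 11. That choice was made on these data and no source states it. Where a gene had probes 50 or more rows apart, their mean correlation at an offset of 11 was 0.10 (2959 pairs over all rows), the highest of all offsets tried. With the names as given the value was 0.042, and 0.061 was the highest at any other offset. It was again the highest, at 0.14, over the 360 pairs whose later probe lay towards the end of the table. Egr1 and both Fos probes lie in rows 20304 to 20566. Over the 128 pairs whose later probe lay in the last 595 rows, which hold these 3 probes, offset 11 ranked 20 with 0.097, and the highest value was 0.16. The names of Egr1 and Fos are therefore less well supported than those of Nr4a1 (row 3602) and Ier2 (row 7189), which lie outside that last stretch.

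**Figure D1:**
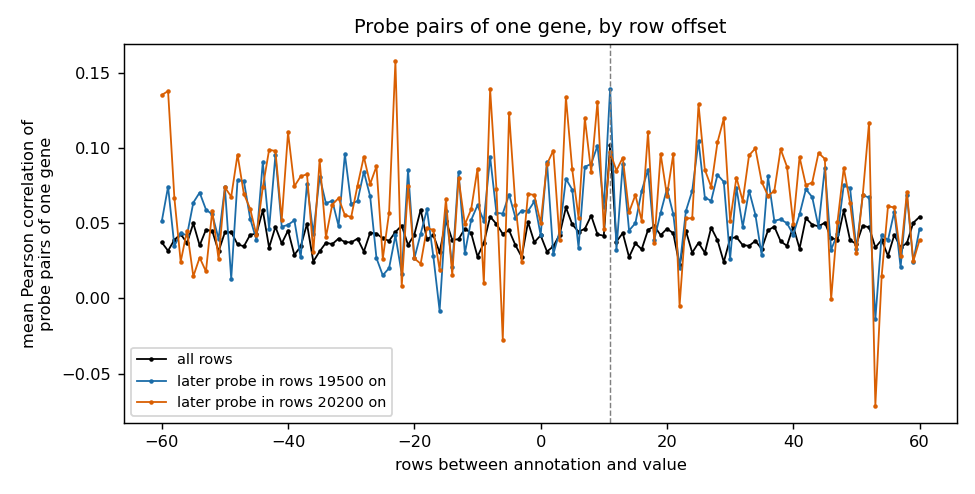
Mean Pearson correlation between probes of one gene (y axis) when the annotation is moved by the number of rows on the x axis, over all rows and over pairs whose later probe lies in the last rows. The dashed line marks 11 rows, where the curve for all rows (0.10) and that for the longer end stretch (0.14) peak, while the curve for the last 595 rows does not peak there (0.097).

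Egr1 lay below 0 in the brain of every mutant mouse. The mouse values, each the mean of the dye-swapped pair, were -0.41, -0.33, -0.29 and -0.81 for mice 1 to 4. The mean was -0.46 ± 0.24 (SD, n = 4 mice), a ratio of 0.727, with a 95% interval of -0.81 to -0.11. The unadjusted limma p was 0.020, rank 231 of 19325 probes. It did not pass after Benjamini-Hochberg adjustment over all probes (adjusted p = 0.998), where 0 probes passed (0%) and 1.88% were lower and 1.62% higher with an unadjusted p under 0.05 (3.5% in all). An exact sign permutation over 4 mice gave 0.125, the smallest p that 4 mice allow. Of the probes with all 4 brain values, 4.71% had every mouse below 0.

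The dye orientations of Egr1 in brain disagreed within every mouse by more than the mean ratio. With HdhQ111 RNA in Cy5 the arrays gave -0.93, -0.83, 0.425 and -1.49, and with it in Cy3 they gave 0.12, 0.17, -1.01 and -0.13. Cy5 minus Cy3 was thus -1.05, -1.01 and -1.36 in mice 1, 2 and 4, and 1.43 in mouse 3, which went the other way. Across all brain probes the median size of that gap was 0.558. The Cy5 arrays averaged -0.71 ± 0.81 and the Cy3 arrays -0.21 ± 0.55 (SD, n = 4 each). Each orientation alone therefore spanned 0, and only the pair means lay on one side of it. In the 10 rows on each side of Egr1, 14 rows were tested in brain, with a median of 0.037 and 0 of them below 0 in every mouse.

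Pituitary markers lay far below 0 in the same brain arrays. Egr1 and Nr4a1 are both expressed in pituitary cells, so the list is given here: 6 of its 8 genes were named on the array, and all 6 had a mean below 0, from -4.35 (Gh, growth hormone) to -0.08 (Chga). Prl, Pomc and Cga lay between them at -4.28, -2.75 and -1.62, and Tshb at -0.22. None passed in the brain fit over genes (limma, adjusted p = 0.0549 for Prl, over 3 mice). At an unadjusted p under 0.05 there were 4 of the 6, against 3.12% of all genes. The liver minus brain difference of Prl, at 4.52, did pass over genes (limma, adjusted p = 0.000853). In liver the list had a median of 0.10, from -2.14 to 0.30. The lowest, Gh, rested on mouse 1 at -7.96, while the other mice lay between -0.40 and -0.059. For Gh, 1 liver array value was over 10 in size. In these brains Egr1 had a mean of -0.46 and Nr4a1 a mean of 0.19. The part of pituitary RNA in either value was not tested.

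In liver Egr1 showed no common direction. Mice 1 and 4 lay below 0 at -0.76 and -0.26, and mice 2 and 3 above it at 0.26 and 0.22. The mean was -0.13 ± 0.48 (SD, n = 4), with a 95% interval of -0.63 to 0.36 (limma, adjusted p = 0.800). Without mouse 1 the mean was 0.073. Mouse 1 had the widest liver arrays, with interquartile ranges of 0.867 and 1.275, and its Egr1 arrays differed by 1.14.

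**Figure D2:**
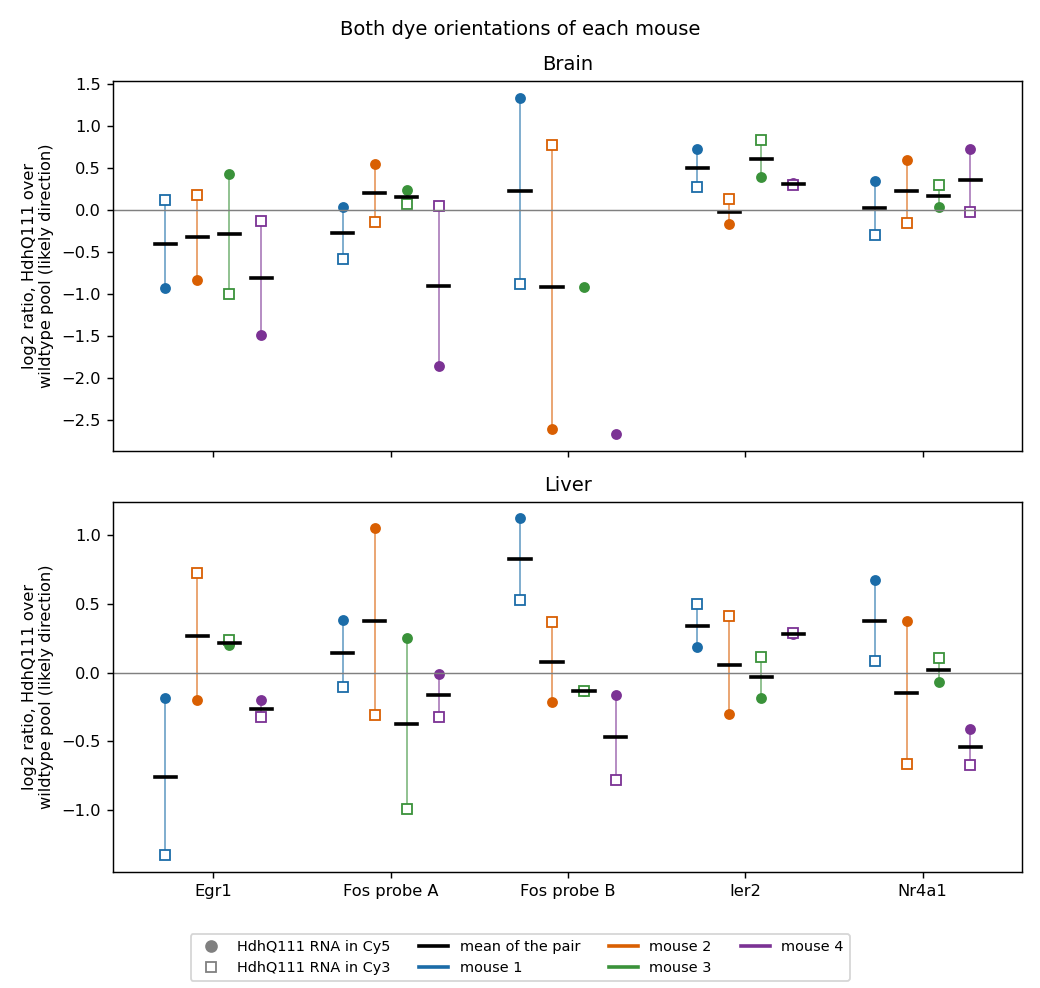
Log2 ratios (y axis) of every array for the 5 probes (x axis) in brain and liver, with the dye orientations of each mouse joined by a line, filled circles for HdhQ111 RNA in Cy5, open squares for Cy3, and a black bar at the mouse value. For Egr1 in brain the 4 bars lie between -0.81 and -0.29 while the arrays reach from -1.49 to 0.425.

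Fos did not separate from 0 in either tissue. On probe A the brain values were -0.28, 0.20, 0.15 and -0.91 for mice 1 to 4, so the mice divided evenly around 0. The mean was -0.21 ± 0.51 (SD, n = 4; 95% interval -0.78 to 0.36; limma, adjusted p = 0.998). The low value of mouse 4 came from 1 array, at -1.86 with HdhQ111 RNA in Cy5 against 0.041 in Cy3, and without that mouse the mean was 0.024. Mouse 4 also had the lowest Egr1 value. In liver probe A gave 0.14, 0.37, -0.37 and -0.16, again evenly divided, with a mean of -0.0055 ± 0.33 (95% interval -0.38 to 0.37; adjusted p = 0.990 by limma). The sign of that mean turned, to 0.0089, when array medians were subtracted. There the Cy5 array was the higher one in all 4 mice, with averages of 0.42 for Cy5 and -0.43 for Cy3.

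Fos probe B was the least precise of the 5 probes. In brain it had both arrays for mice 1 and 2 only, at 0.23 and -0.92, and was not tested. Mouse 1 rested on 1.33 (Cy5) and -0.88 (Cy3), and mouse 2 on -2.62 and 0.77. Mice 3 and 4 had the Cy5 array alone, at -0.92 and -2.68. In liver all 4 mice had values, 0.82, 0.080, -0.13 and -0.47, with a mean of 0.075 ± 0.55 (SD, n = 4; adjusted p = 0.902 by limma). The probes of Fos gave the same sign in mice 1, 2, 3 and 4 of the liver, and opposite signs in brain mice 1 and 2.

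Nr4a1 lay above 0 in the brain of every mutant mouse, by small amounts. The values were 0.027, 0.22, 0.16 and 0.35, with a mean of 0.19 ± 0.14 (SD, n = 4), a ratio of 1.14. The 95% interval ran from -0.10 to 0.49 and reached across 0 (limma, unadjusted p = 0.158, adjusted p = 0.998). Moderation in limma draws so small a spread towards that of other probes, which widens the interval. The exact sign permutation gave 0.125. All 4 mice were above 0 for 6.02% of brain probes. The Cy3 arrays did not share that sign: with HdhQ111 RNA in Cy5 the arrays were all positive (0.35, 0.60, 0.032 and 0.73), and with it in Cy3 all but that of mouse 3 were negative (-0.29, -0.16, 0.29 and -0.024). Of the 4 genes Nr4a1 had the smallest spread between brain mice, at percentile 8.75 of all tested probes.

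In liver Nr4a1 ran from positive to negative. Mouse 1 was at 0.38, mouse 3 at 0.017, mouse 2 at -0.14 and mouse 4 at -0.54. The mean was -0.073 ± 0.38 (SD, n = 4; 95% interval -0.49 to 0.34; adjusted p = 0.868 by limma). Without mouse 4 it was 0.083.

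Ier2 had the highest brain mean of the 4 genes and the closest match between dyes. Its brain values were 0.50, -0.020, 0.61 and 0.31, so 3 of 4 mice were above 0. The mean was 0.35 ± 0.28 (SD, n = 4), a ratio of 1.27, with a 95% interval of -0.028 to 0.73 (limma, unadjusted p = 0.0634, adjusted p = 0.998). In contrast to Egr1, its orientations averaged alike, at 0.32 ± 0.37 for Cy5 and 0.38 ± 0.31 for Cy3. The gaps between them were 0.024 to 0.459 in size, below the brain median of 0.558 in every mouse. Ier2 also lay above 0 in liver in 3 of 4 mice, at 0.34, 0.056, -0.035 and 0.28. The liver mean was 0.16 ± 0.18 (95% interval -0.11 to 0.43; adjusted p = 0.641 by limma), from 0.33 on the Cy3 arrays and -0.0030 on the Cy5 arrays.

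**Figure D3:**
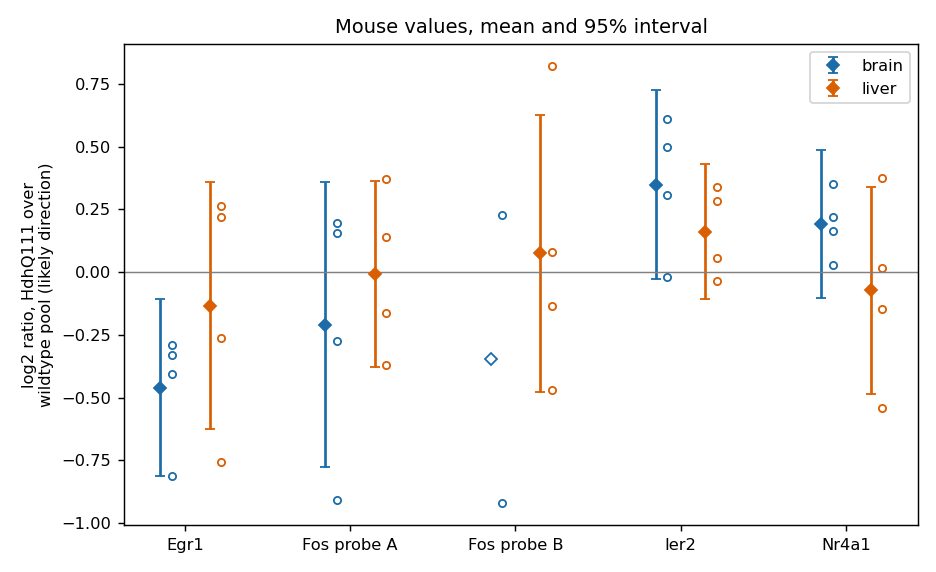
Mouse values (open circles), mean (diamond) and 95% limma interval (bar) of the log2 ratio for each probe in brain and liver. The Egr1 interval in brain (-0.81 to -0.11) is the only 1 of the 9 drawn that leaves out 0, and the open diamond of Fos probe B in brain has no interval because 2 mice had a value.

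Set beside all probes, 2 of the 4 tested brain probes lay beyond the outer deciles and 2 within. Between their outer deciles, brain means ran from -0.30 to 0.29, with Egr1 (-0.46) below that range, Ier2 (0.35) above it, and Fos probe A and Nr4a1 inside. The untested Fos probe B, at -0.35 over 2 mice, lay below it. In liver that range was -0.27 to 0.27 and held all 5 probes. No member passed in liver, where 0 of 20127 probes passed (0%) and 7% had an unadjusted p under 0.05 (4.12% lower, 2.88% higher). Nor did any member lie on one side of 0 in all 4 livers, as 13% of liver probes did below it and 7.56% above it.

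**Figure D4:**
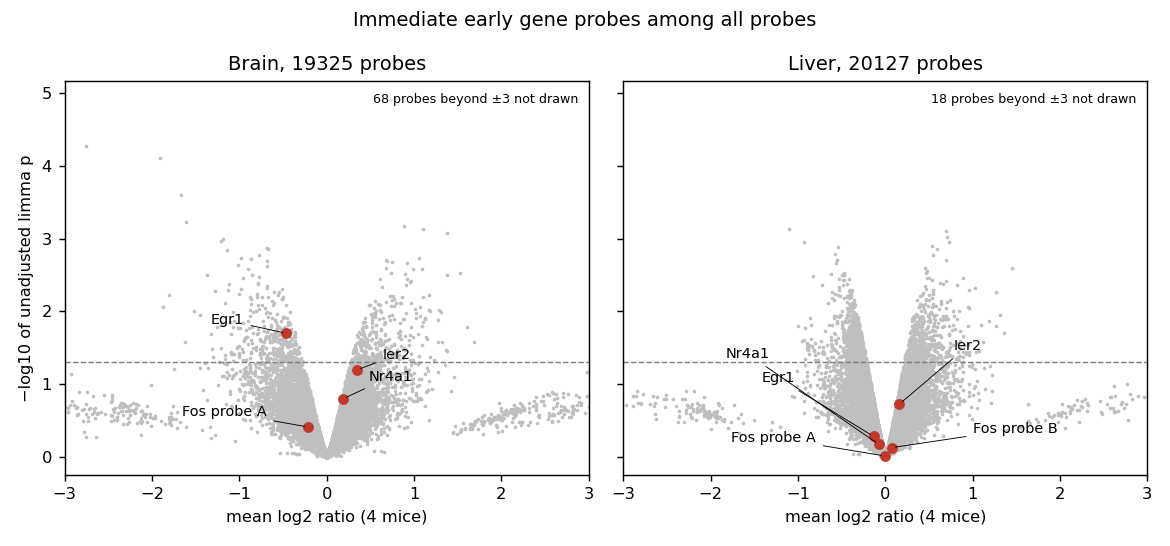
Mean log2 ratio (x axis) against the significance of each probe, as -log10 of limma's unadjusted value (y axis), in brain and liver, with the immediate early gene probes in red and a dashed line at 0.05. Egr1 in brain is above the line; the 68 brain and 18 liver probes beyond 3 in size are not drawn.

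Whether the ratio differed between tissues was tested directly in limma, as liver minus brain, in a fit that did not pair the tissues of a mouse. The Egr1 difference was 0.33 ± 0.25 (SE), with mouse differences of -0.35, 0.59, 0.51 and 0.55 and a 95% interval of -0.25 to 0.91 (adjusted p = 0.771). The difference was 0.20 ± 0.28 for Fos probe A (interval -0.44 to 0.85), -0.19 ± 0.18 for Ier2 (-0.60 to 0.23) and -0.26 ± 0.21 for Nr4a1 (-0.73 to 0.21). Their adjusted p values were 0.860, 0.804 and 0.772. With the mouse as a block, limma gave an unadjusted p of 0.194 for Egr1 and 0.443 for Fos probe A. It was 0.352 for Ier2 and 0.317 for Nr4a1. Over all probes 1 of 19055 passed (0.00525%), and it was none of these; 6.47% had an unadjusted p under 0.05, which none of the members had. Mouse 1 was the exception for Egr1 and for Nr4a1: its Egr1 was lower in liver, and its Nr4a1 higher, while the other 3 mice went the other way. Without mouse 1, the Egr1 difference was 0.55 and that of Nr4a1 -0.47.

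The 4 genes did not share a common pattern over the 8 mouse values. These values come from 4 mice, 2 tissues and 2 pools, so they are not independent, and the correlations are descriptions. Egr1 and Fos probe A, 8 rows apart in the table, had a Pearson correlation of 0.39. Egr1 ran against Ier2 (-0.53) and Nr4a1 (-0.55), and Nr4a1 had 0.13 with Ier2 and -0.15 with Fos probe A. Among 9621 named probes, those most like Egr1 were Mkrn2 (0.94), Hoga1 (0.93) and Pik3r3 (0.92). For Fos probe A they were Bcl2l11 (0.97), Cstf1 (0.95) and Zfp316 (0.91). For Ier2 they were Hoxd12, Mrpl45 and Pafah2 (all 0.92), and for Nr4a1 Hnrnpc (0.97), Rnf146 (0.93) and H3f3a (0.93). All were picked as the highest among 9621 probes by correlations over only 8 values, and such a choice alone can give high values. Whether these genes vary with the members beyond that was not tested.

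Other genes of the same response were described by role, from lists of 81 genes of which 49 had a named probe. Of these, 48 were tested in brain and 49 in liver with the probes of a gene averaged, and 0 passed limma's adjusted test in either tissue, where 0 of 8621 brain genes and 0 of 8828 liver genes passed (0% in both). At an unadjusted p under 0.05 there were 2 of the 48 in brain and 3 of the 49 in liver, against 3.12% and 7.6% of all genes. In brain 25 means lay above 0 and 23 below, with a median of 0.0050 beside 0.024 for all genes. In liver 25 lay above and 24 below, with a median of 0.0030 beside -0.031. Over all genes, 4909 of 8621 means lay above 0 in brain and 5010 of 8828 below 0 in liver, so counts of signs are to be read against that lean. The plot of genes by role shows that single lists differed from the pooled median, as with the NR4A list (0.35, 2 genes) and the feedback inhibitors (-0.18, 8 genes) in liver. The pooled brain median was 0.032 on the Cy5 arrays alone and -0.043 on the Cy3 arrays alone. Brain medians of several lists also turned with the dye orientation. That of the NR4A list was 0.042 on Cy5 and -0.0086 on Cy3, and the larger turns are given with each list.

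The FOS and JUN family, the partners and relatives of Fos within AP-1, had 6 of 9 genes named. The brain median was -0.064, but -0.26 on the Cy5 arrays alone and 0.28 on the Cy3 arrays alone. In brain 4 lay below 0, beside 3712 of 8621 of all genes. Fosl1 was lowest at -0.31 ± 0.17 (SD, n = 4), with all 4 mice below 0 (-0.27, -0.56, -0.20 and -0.20). Its unadjusted p was 0.0417 and its adjusted p 0.999 by limma. Jun was at -0.11 ± 0.10 over 3 probes, Fosb at -0.022 ± 0.11, Batf at -0.25 ± 0.37 and Junb at 0.11 ± 0.37. Atf3, a stress-induced member, was at 0.39 ± 0.86 (n = 3), with 1.38 in mouse 1, -0.033 in mouse 3, -0.18 in mouse 4 and no value in mouse 2. In liver 5 of the 6 lay above 0, beside 3818 of 8828 of all genes. Batf, a partner of JUN best known in lymphocytes, was highest at 0.50 ± 0.28, with 0.69, 0.20, 0.78 and 0.32 (unadjusted p = 0.0108, adjusted p = 0.598 by limma). Fosb was at 0.18 ± 0.37, Fosl1 at 0.082 ± 0.32, Atf3 at 0.058 ± 0.73, Jun at 0.035 ± 0.21 and Junb at -0.093 ± 0.35.

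Both relatives of Nr4a1 had a mean above 0 in liver, and neither passed the adjusted test. Nr4a2 was at 0.29 ± 0.33 there, above 0 in 4 of 4 mice, and Nr4a3 at 0.42 ± 0.38, above 0 in 3 of 4 (unadjusted p = 0.0454, adjusted p = 0.598 by limma). Nr4a1 itself was at -0.073 in the same livers, so the 3 receptors of the family did not share a sign. In both relatives mouse 1 was the highest, at 0.78 for Nr4a2 and 0.89 for Nr4a3. In brain Nr4a2 was at 0.13 ± 0.17 and Nr4a3 at -0.093 ± 0.33. Of the EGR family list only Nab2, which represses EGR proteins, had a named probe, and it was at -0.078 ± 0.65 in brain and 0.035 ± 0.11 in liver.

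**Figure D5:**
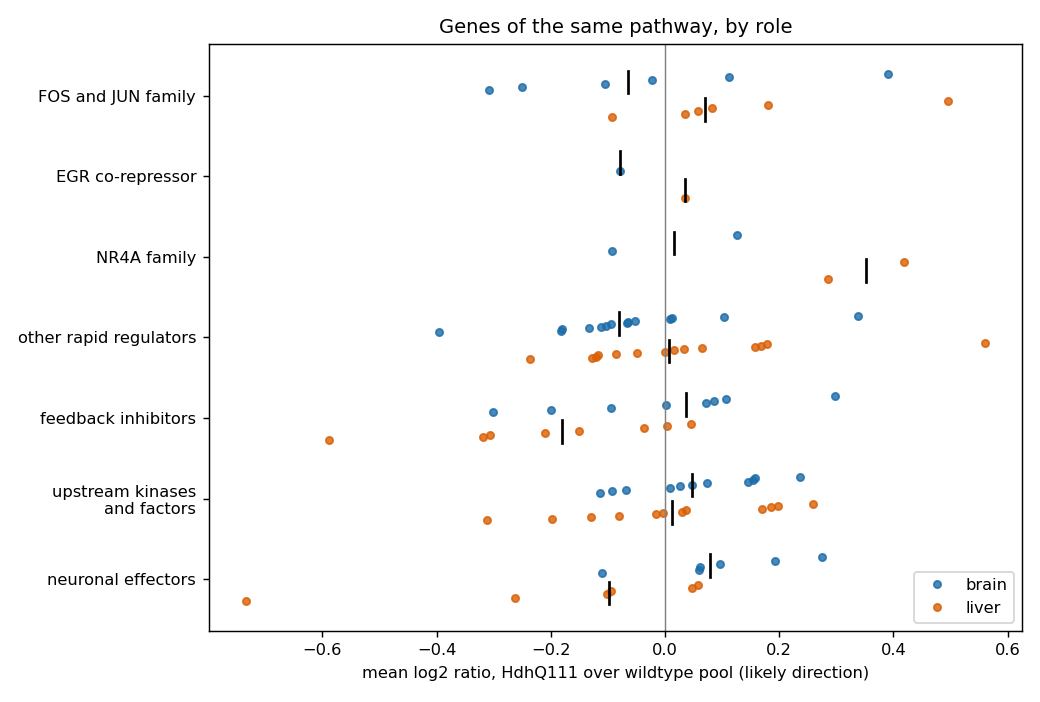
Mean log2 ratio (x axis) of each tested gene in brain and liver, grouped by role (y axis), with a black bar at the median of the list. The medians of all role genes were 0.0050 in brain and 0.0030 in liver, while in liver the NR4A list (2 genes) has a median of 0.35 and the feedback inhibitors (8 genes) one of -0.18.

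Feedback inhibitors limit the response by removing kinase activity or degrading its mRNAs. Of 8 tested, 5 lay above 0 in brain, near the share of all genes. In liver 6 lay below 0, beside 5010 of 8828 of all genes. The brain median of 0.037 turned to -0.13 on the Cy5 arrays alone and -0.052 on the Cy3 arrays alone, and the liver median of -0.18 was -0.012 and -0.30. Zfp36l1, an mRNA decay factor, was at -0.30 ± 0.093 in brain, below 0 in every mouse (unadjusted p = 0.0297, adjusted p = 0.999 by limma), while the phosphatase Dusp1 was at 0.30 ± 0.64. In liver Zfp36, a decay factor of the same family, was at -0.32 ± 0.24, also below 0 in every mouse (unadjusted p = 0.0386), and Spry2, an inhibitor of growth factor signalling, at -0.59 ± 0.60.

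The other rapid regulators had 14 genes tested, with 10 below 0 in brain and 7 in liver. Of all genes, 3712 of 8621 and 5010 of 8828 lay below 0. Tiparp lay below 0 in all 4 mice of both tissues, at -0.40 ± 0.41 in brain and -0.24 ± 0.19 in liver. The transcription factor Cebpd was at 0.34 ± 0.29 in brain, and Ier3 at 0.17 ± 0.082 in liver, each above 0 in all 4 mice. Among upstream kinases and factors, 8 of 11 lay above 0 in brain and 6 of 12 in liver, beside 4909 of 8621 and 3818 of 8828 of all genes. Their brain median of 0.047 was 0.27 on the Cy5 arrays alone and -0.14 on the Cy3 arrays alone. Elk4, which binds with serum response factor, was at 0.24 ± 0.064 in brain, from 0.17 to 0.30, and at -0.31 ± 0.27 in liver, where 3 of 4 mice were below 0. Its difference of -0.55 ± 0.16 (SE) had an unadjusted p of 0.00767 by limma and did not pass over all genes (adjusted p = 0.708). The kinase Map2k1 was at 0.15 ± 0.16 in brain and Mef2d at -0.20 ± 0.15 in liver. Of 6 neuronal effectors, 5 lay above 0 in brain and 2 in liver, to be read beside the same counts over all genes. Their brain median of 0.079 likewise was 0.27 on the Cy5 arrays and -0.088 on the Cy3 arrays. Homer1, a synaptic scaffold, was at -0.11 ± 0.082 in brain and -0.26 ± 0.82 in liver, Rheb at 0.27 ± 0.55 in brain and Plk2 at -0.10 ± 0.26 in liver.

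Markers of other cells that the tissues hold gave these values in the same arrays, and their part in any member's ratio was not tested. In brain the medians were -0.012 for 5 microglia and macrophage genes, 0.12 for 6 endothelial genes and -0.22 for 3 blood genes. They were -0.040 for 3 neuronal genes, -0.057 for 5 astrocyte genes and -0.041 for 3 oligodendrocyte genes. Single brain genes ran wider, with astrocyte genes from -0.27 to 0.75 (S100b, above 0 in all 4 mice). Microglia and macrophage genes ran from -0.52 to 0.32, and blood genes from -2.47 to 0.070. The lowest blood gene, Slc4a1, rested on mouse 2 at -8.58, and 1 of its brain array values was over 10 in size. The neuronal gene Slc17a7 was at 1.27 over 2 mice and was not tested. In liver the medians were -0.19 for 5 hepatocyte and -0.056 for 5 macrophage genes. Those of 6 endothelial and 3 blood genes were -0.11 and -0.21.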

How the data were processed

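Log2 ratios of 16 two-colour cDNA arrays were analysed as the authors deposited them; base, scanner, background correction and normalization are not given in the sources used here. Arrays had 19530 to 20584 values each and their small number sets the precision. Pair means of brain and liver did not correlate over probes (Spearman's rho -0.0099) whereas dye differences did (0.387), so all columns were taken as turned one way. Each mouse value averages both dye orientations and is missing where either array is. Probes with at least 3 mice were tested against 0, two-sided, in limma 3.58.1 (R 4.3.3, lmFit and eBayes), with Benjamini-Hochberg adjustment at 0.05 over all probes of a tissue, and liver minus brain over the 8 mouse values. The code was tested on simulated data. Both tissues came from the same mice per the labels; brain and liver deviations of a mouse correlated by 0.053, -0.013, 0.084 and 0.020. Names were read 11 rows from the annotation (platform table; current symbols by Entrez number). Named are the members, every gene of the FOS and JUN, EGR and NR4A lists, the 2 smallest p per other list and tissue, and 3 most similar genes per member (SD of at least 0.1 and no value over 10 in size). Members and lists were chosen with earlier results of these data known. Alternatives were array centring, 1 dye orientation, removal of values over 10 in size, either array of a pair, all 4 mice, robust eBayes, gene averages, names as given, each mouse left out and the mouse as a block.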

Additional observations from a re-analysis of the deposited data

Results flagged for a closer look

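In 2 of 42 sets of 4 mouse values, 1 mouse stood far from the others by Dixon's test at the 95% level, where chance gives about 1 in 20. For Nr4a3 in brain, mouse 1 was at -0.59 while the other mice lay between 0.017 and 0.12. For Homer1 in liver, mouse 1 was at -1.49 while the others lay between 0.044 and 0.24. Neither concerns a probe of Egr1, Fos, Ier2 or Nr4a1.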

How the results depend on the processing

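No member passed the adjusted test in any setting; over 194 tests the smallest unadjusted p was 0.0157 and the smallest adjusted p 0.293 (limma). In brain, Egr1 stayed below 0 in every setting but the names as given. Several settings could not change its mean of -0.46. These were removal of values over 10 in size, either array of a pair, all 4 mice, robust eBayes and gene averages. It was -0.47 with array medians subtracted, -0.71 on Cy5 arrays alone and -0.21 on Cy3 arrays alone. With 1 mouse left out, Egr1 in brain was -0.52 to -0.34 (limma, unadjusted p = 0.0874 without mouse 4). Ier2 was then 0.26 to 0.47 and Nr4a1 0.14 to 0.25, Fos probe A -0.34 to 0.024 and Fos probe B -0.92 to 0.23. The causes of the following changes were not tested. With 1 mouse left out, liver values ran from -0.27 to 0.073 for Egr1 (above 0 without mouse 1), -0.13 to 0.12 for Fos probe A (above 0 without mouse 3 or 4), -0.17 to 0.26 for probe B (below 0 without mouse 1) and -0.22 to 0.083 for Nr4a1 (above 0 without mouse 4), and the difference of Fos probe B from -0.15 (without mouse 2) to 0.75. Probes passing then numbered 0 to 1 in brain (1 without mouse 2) and 0 to 1 for the difference (0 without mouse 3 or 4). With the names as given, brain values were 0.027 for Egr1, 0.21 for Fos probe A and 0.078 for probe B, liver values -0.25 for Fos probe B, -0.54 for Ier2 and 0.0014 for Nr4a1, and differences -0.11, -0.26 and -0.32 for Egr1 and Fos probes A and B. From Cy5 arrays alone, Fos probe B was -1.22 in brain with a difference of 1.37, and liver values were 0.42 for Fos probe A, -0.0030 for Ier2 and 0.14 for Nr4a1. From Cy3 arrays alone, Nr4a1 was -0.045 in brain, Fos probe B -0.0040 in liver, the differences -0.27 and 0.050 for Fos probes A and B, and the liver median of all role genes 0.044. Fos probe A in liver was 0.0089 with array medians subtracted and 0.035 with the gene's probes averaged; taking either array of a pair gave a difference of 1.15 for Fos probe B. Probes passing in brain numbered 0, but 2 on Cy5 arrays and 1 with either array. For the difference 1 passed, but 2 without values over 10 in size and 0 with all 4 mice needed. With the mouse as a replicate block, 1 probe passed for the difference, and no member's call changed (Egr1 0.33, adjusted p = 0.764).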
